A study of Mus musculus with 2 samples.

Results

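The granule and receptor genes of mast cells and basophils were followed through leukocytes sorted from mouse lung. The set holds 10 genes, of 55401 in the deposited table: the granule proteases Cma1, Mcpt4, Mcpt8, Tpsb2, Tpsab1 and Cpa3, the histamine enzyme gene Hdc, the IgE receptor chains Fcer1a and Ms4a2, and the transcription factor gene Gata2. They were taken by symbol and read as unique molecular identifiers (UMIs, each 1 captured molecule) in mast cells, basophils and every other class of cells gated on marker genes. The genes were chosen by their UMI counts in these mast cells and basophils, which were known when the list was drawn up, so the levels are a description and carry no test.

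Mast cells and basophils are the leukocytes that carry the high-affinity receptor for IgE, and both release histamine and preformed proteases from granules when the receptor is crosslinked. Mast cells mature in tissues and, in the connective tissue type, store the chymase Mcpt4, the elastase-like Cma1 product, the tryptases Tpsb2 and Tpsab1 and the carboxypeptidase Cpa3 bound to serglycin. Basophils mature in bone marrow, circulate, and in the mouse store Mcpt8, a protease of the granzyme-like group. Hdc makes histamine from histidine, and Gata2 is needed for both lineages.

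The study sorted live CD45+ cells, that is, leukocytes, from digested lungs of mice given urethane, a lung carcinogen, and killed 7 weeks after the first dose. It has 1 WT sample and 1 Siah1a/2 KO sample, lacking a pair of ubiquitin ligase genes, and both received urethane. Strain, sex, age and the number of mice behind a sample are not in the labels. The deposited table pools both samples under barcode suffixes 1 and 2, and no label ties a suffix to a genotype, so the suffixes are called library 1 and library 2 here. A difference between them cannot be told apart from genotype, mouse or preparation, and with 1 library on each side there is no test. All intervals are exact 95% intervals for counting error only.

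There were 8522 barcodes with 86227008 UMIs in library 1 and 6479 with 59459790 in library 2. Barcodes needed 500 or more genes and a mitochondrial share of 10% or less, which left 8066 and 6113 cells. Cells were named from 6 markers a class, 3 of them needed, and a cell with markers of another lineage was put aside as mixed. The gates hold 4 of the 10 genes (Cma1, Mcpt4 and Tpsb2 for mast cells, Mcpt8 for basophils), while the other 6 played no part in them. The suffixes share 11 barcode sequences, of which 1 was a mast cell-like cell.

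Mast cell-like cells were few in both libraries, and basophil-like cells were found in library 2. There were 78 mast cell-like cells in library 1, 0.967% of the kept cells (0.765 to 1.21), and 72 in library 2, 1.18% (0.923 to 1.48). Basophil-like cells numbered 0 in library 1, with an exact upper limit of 0.0457%, and 15 in library 2, 0.245% (0.137 to 0.404). Median depths were 6746 UMIs for mast cell-like cells of library 1, 5064.5 for those of library 2 and 4676 for the basophil-like cells. Among mixed cells, 14 of library 1 and 17 of library 2 also passed the mast cell gate, and 2 and 4 the basophil gate.

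The gates also hold marker genes outside the set, on which the cells were chosen, so their counts describe the gates and do not check them. Among the 150 mast cell-like cells, 137 had a UMI of the stem cell factor receptor gene Kit, 145 of Mrgprb1 and 126 of Mrgprb2, a receptor gene of connective tissue-type mast cells. Among the 15 basophil-like cells all had Cyp11a1, 14 had Hgf and 12 had Cd200r3, while 4 had Il4 and 1 had Prss34, a basophil protease gene. The basophil markers were not confined to these cells: mast cell-like cells held 1305 UMIs of them, 539 of Cd200r3 among these. Their median was 12.2 basophil marker UMIs per 10000 of a cell, against 45.6 in basophil-like cells. Markers of the other lineages were close to 0 in the basophil-like cells: none of the 6 NK cell markers or 6 B cell markers had a UMI, and 5 of the 6 mast cell markers were at 0, with 2 UMIs of Cma1. The T cell markers had 7 UMIs in all, the macrophage markers 9 and the classical monocyte markers 13. 1 cell of library 2 entered the mast cell gate on single UMIs of Cma1, Mcpt4 and Tpsb2, 3 mast marker UMIs of 3553, whereas the next lowest mast cell-like cell had 40.

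The proteases took up a large part of the mast cell transcriptome. The 10 genes made up 14.7% of all UMIs of mast cell-like cells, with a median cell at 14.5% and a range of 0.0844% to 28.4%. In basophil-like cells the same genes made up 0.785%. Levels are given as UMIs per 1000000 UMIs of a class (CPM). A UMI counts a molecule once at its 3′ end, so no division by gene length was made.

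Cma1 was the highest of the set, at 61385 CPM in mast cell-like cells of library 1 and 62785 in library 2. Mcpt4, which encodes the main chymase of connective tissue mast cells, stood at 38974 and 36433 CPM. The tryptase gene Tpsb2 stood at 23325 and 24355 CPM. Tpsab1, which encodes the other soluble tryptase, was far lower, at 1124 and 1210 CPM. Cpa3, the carboxypeptidase gene, reached 18020 and 16259 CPM. The counting intervals of these 5 genes did not touch one another, and their order was the same in both libraries.

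Among the receptor and enzyme genes, Fcer1a was the highest in mast cell-like cells. Fcer1a, the IgE-binding alpha chain, stood at 3338 and 3407 CPM in libraries 1 and 2, and Ms4a2, the signal-amplifying beta chain, at 514 and 534 CPM. Hdc stood at 658 and 915 CPM, and Gata2 at 477 and 528 CPM. The intervals of Ms4a2 and Gata2 overlapped in each library, so these neighbours in the order were not separated. Mcpt8 was the lowest, with 16 UMIs (29.9 CPM, 17.1 to 48.6) and 17 UMIs (36.3 CPM, 21.2 to 58.2).

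In basophil-like cells the order was turned over. Hdc led with 269 UMIs (3587 CPM, 3171 to 4042), followed by Gata2 with 132 UMIs (1760 CPM, 1473 to 2087) and Mcpt8 with 122 UMIs (1627 CPM, 1351 to 1942), the last 2 with overlapping intervals. Fcer1a had 23 UMIs (307 CPM), Ms4a2 21 UMIs (280 CPM) and Cpa3 20 UMIs (267 CPM), and these 3 were not separated from one another. The mast cell proteases were all but missing: Cma1 had 2 UMIs, and Mcpt4, Tpsb2 and Tpsab1 had none. For a count of 0 the floor of 3 UMIs comes to 40.0 CPM, and the exact upper limit is 49.2 CPM.

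**Figure D1:**
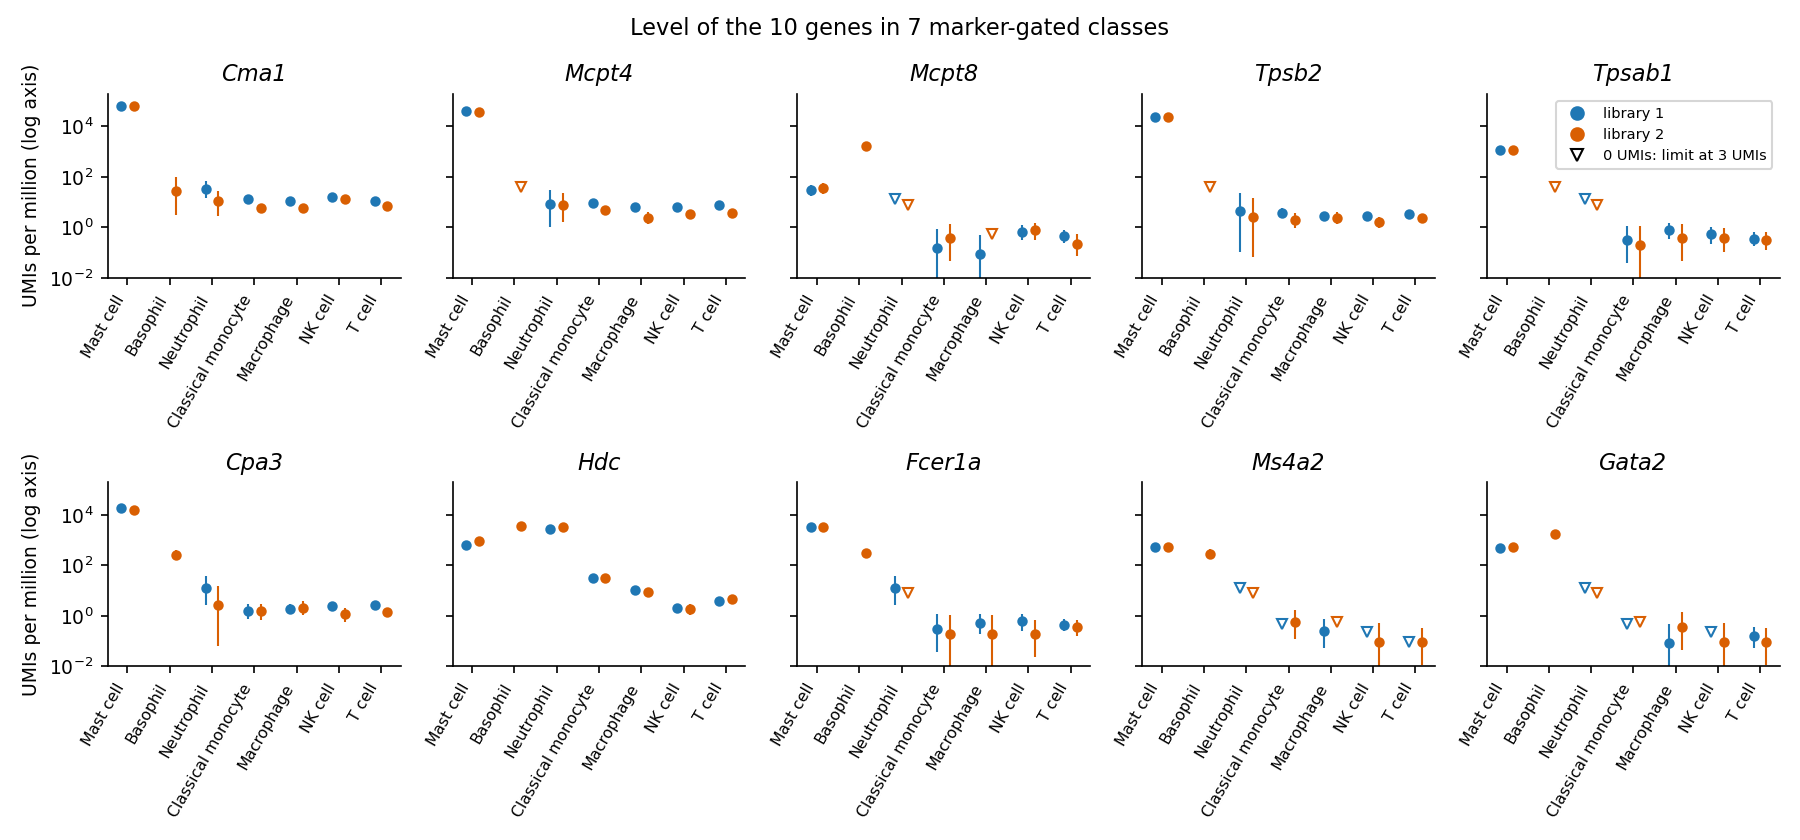
Each panel plots 1 gene in 7 marker-gated classes as UMIs per 1000000 of the class (CPM) on a log axis, with points for library 1 and library 2, bars for exact 95% counting intervals (some run below the axis) and open triangles at the limit of 3 UMIs where none was counted. In mast cell-like cells the panels run from Mcpt8 (29.9 and 36.3) to Cma1 (61385 and 62785), and Hdc is high in neutrophil-like cells (2718 and 3252) and basophil-like cells (3587) as well.

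Set side by side, mast cell-like cells held more of 7 genes and less of 3. Mast over basophil, Mcpt4 was at least 945-fold higher, Tpsb2 at least 595-fold and Tpsab1 at least 29.1-fold, with the floor at 3 UMIs over the 15 basophil-like cells. Cma1, with 2 UMIs in basophil-like cells, was 2326-fold higher (644 to 19209). The genes outside the gates ran from Cpa3, 64.5-fold higher (41.7 to 106), through Fcer1a, 11.0-fold higher (7.31 to 17.4), to Ms4a2, 1.87-fold higher (1.21 to 3.05). With mixed cells counted in the gates the interval for Ms4a2 reached below equality (log2 0.25, -0.27 to 0.88).

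The 3 genes that were lower in mast cell-like cells were Hdc, Gata2 and Mcpt8. Hdc was at 0.217 of the basophil-like level (0.189 to 0.250), Gata2 at 0.284 (0.234 to 0.347) and Mcpt8, a gate gene, at 0.0202 (0.0133 to 0.0299). Over all 2575 genes with at least 50 UMIs in the pair of classes, 33.4% had an interval wholly above equality and 13.8% wholly below. The median log2 difference was 4.70 for the 10 genes and 0.70 for all 2575, but 4 of the 10 are gate genes and the rest were listed for these cells. Within library 2 alone, where both classes come from 1 preparation, the directions were 7 higher and 3 lower as well, against 44.4% and 17.8% of 1379 genes.

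The 15 basophil-like cells contributed unevenly to these levels, and not each of them showed the whole pattern. Hdc ranged from 1 to 48 UMIs a cell (median 13) and was found in all 15. Gata2 ranged from 0 to 39 (median 7), and Mcpt8 from 1 to 31 (median 5). Fcer1a was found in 7 of the 15 cells and Cpa3 in 9, and 10 of the 23 Fcer1a UMIs and 6 of the 20 Cpa3 UMIs came from 1 cell.

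**Figure D2:**
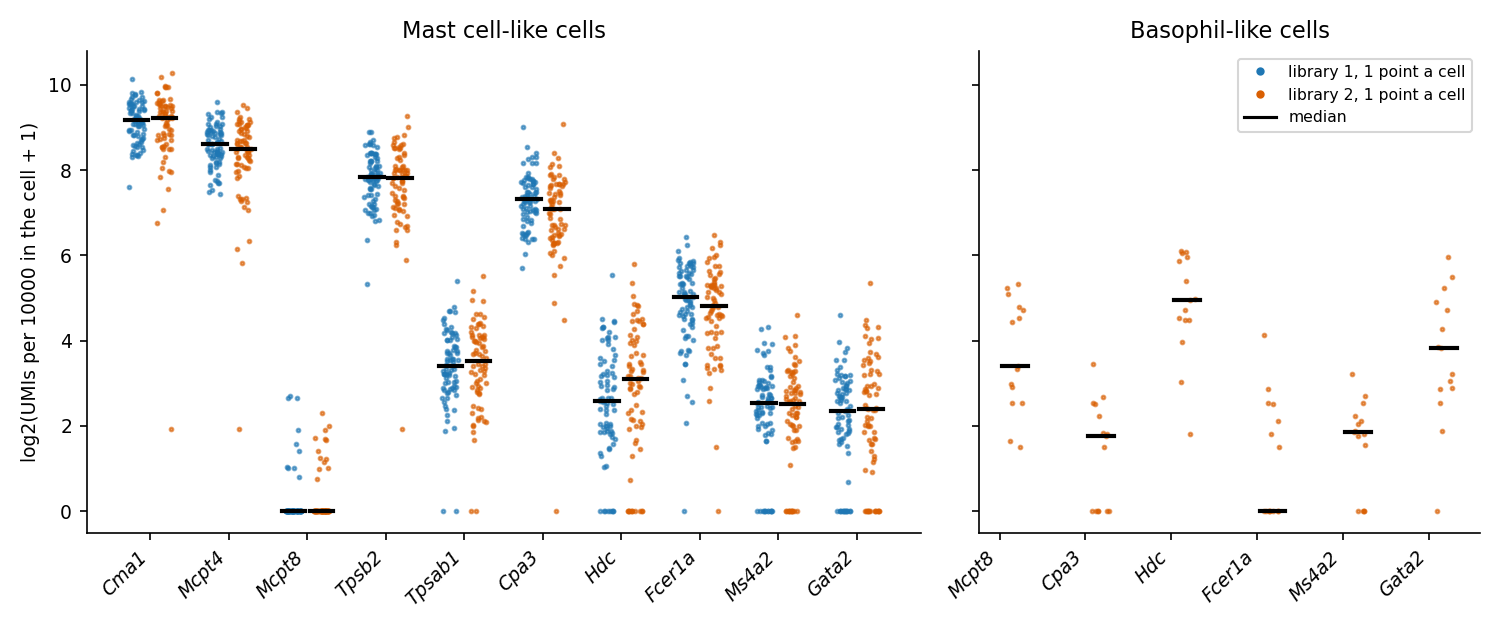
Each point is 1 cell, plotted as log2 of UMIs per 10000 in the cell plus 1, for mast cell-like cells of both libraries (left) and the 15 basophil-like cells of library 2 (right), with bars at medians. Cma1, Mcpt4, Tpsb2 and Cpa3 form high, narrow bands in mast cell-like cells apart from 1 low cell of library 2, while Hdc and Gata2 spread from 0 upward.

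Among mast cell-like cells the 4 abundant protease genes were correlated with one another, and Hdc and Gata2 only weakly with them. Per 10000 UMIs of a cell, Cma1 ran from 2.81 to 1244 (median 589), Mcpt4 from 2.81 to 771 (median 368), Tpsb2 from 2.81 to 611 (median 226) and Cpa3 from 0 to 541 (median 151). The lowest value of each of the first 3 is the cell that entered on single UMIs. Hdc ran from 0 to 54.4 (median 6.28), Gata2 from 0 to 40.0 (median 4.19) and Fcer1a from 0 to 88.6 (median 30.1).

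Pearson correlations across the 150 mast cell-like cells were taken on log2(UMIs per 10000 + 1). They were 0.79 between Cma1 and Mcpt4, 0.77 between Mcpt4 and Cpa3, and 0.77 between Tpsb2 and Cpa3. The other pairs of these 4 genes gave 0.70 (Cma1 and Cpa3), 0.69 (Mcpt4 and Tpsb2) and 0.61 (Cma1 and Tpsb2). After thinning each cell to 2000 UMIs, which left 135 cells, the 6 pairs lay between 0.53 and 0.78 on log2(UMIs + 1). The cell that entered on single UMIs, far below the rest in Cma1, Mcpt4 and Tpsb2, is in both sets of cells. Correlations without that cell were not computed. Hdc gave 0.05 with Cma1, 0.02 with Mcpt4, 0.11 with Cpa3 and 0.22 with Tpsb2, and Gata2 gave 0.06, 0.13, 0.20 and 0.08 with the same genes. Fcer1a lay between, at 0.49 with Cma1, 0.43 with Mcpt4, 0.51 with Cpa3 and 0.42 with Tpsb2. After thinning its values with the same genes were 0.38, 0.26, 0.38 and 0.28. Hdc and Gata2 are counted at few UMIs a cell, medians 3 and 2, which by itself limits a correlation. Cells share their library and total depth, so these are descriptions.

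The stretches before the start sites are shown for the 4 genes that carry a GATA-type word there, since Gata2 is itself in the set. RefSeq windows (build GRCm38.p6, 250 bases before to 50 after the start) were at hand for 8 of the 10 genes. The words searched were TGATAA and AGATAA and their reverse complements TTATCA and TTATCT. Mcpt4, Cpa3 and Fcer1a held 1 and Ms4a2 held 3, that is 4 of 8 windows, while Cma1, Mcpt8, Hdc and Gata2 held none. Of all 32851 windows of the same length, 18.6% held at least 1. A match is a string of letters in this window and not a binding site. The 250 bases before the start follow, 5′ to 3′ on the gene's strand, with the words in capitals. They lie on the minus strand at chr14:56062311-56062560 (Mcpt4), chr3:20242182-20242431 (Cpa3), chr19:11623720-11623969 (Ms4a2) and chr1:173227230-173227479 (Fcer1a).
Mcpt4: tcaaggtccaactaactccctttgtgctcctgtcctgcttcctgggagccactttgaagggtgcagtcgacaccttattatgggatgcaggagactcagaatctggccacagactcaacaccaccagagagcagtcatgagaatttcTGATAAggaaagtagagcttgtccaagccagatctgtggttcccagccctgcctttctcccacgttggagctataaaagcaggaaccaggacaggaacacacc
Cpa3: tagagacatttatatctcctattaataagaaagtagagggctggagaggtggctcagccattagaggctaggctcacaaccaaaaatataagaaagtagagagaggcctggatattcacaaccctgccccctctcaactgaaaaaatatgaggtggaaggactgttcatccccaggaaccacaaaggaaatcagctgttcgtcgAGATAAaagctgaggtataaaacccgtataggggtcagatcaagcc
Ms4a2: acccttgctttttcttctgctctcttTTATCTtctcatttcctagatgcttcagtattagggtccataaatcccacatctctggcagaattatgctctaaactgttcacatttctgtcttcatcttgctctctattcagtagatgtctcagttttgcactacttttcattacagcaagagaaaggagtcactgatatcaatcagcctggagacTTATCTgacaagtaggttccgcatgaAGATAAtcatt
Fcer1a: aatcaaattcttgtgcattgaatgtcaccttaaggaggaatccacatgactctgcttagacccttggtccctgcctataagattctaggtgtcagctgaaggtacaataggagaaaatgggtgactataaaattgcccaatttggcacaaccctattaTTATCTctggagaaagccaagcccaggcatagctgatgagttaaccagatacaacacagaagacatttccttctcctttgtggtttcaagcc

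The serine proteases of the set lie on 2 chromosomes. Cma1 (chr14:55941451-55944675), Mcpt4 (chr14:56059629-56062313) and Mcpt8 (chr14:56082166-56085273) lie on the minus strand of chromosome 14 in 1 row with the granzyme genes, in the order Cma1, Cma2, Mcpt1, Mcpt9, Mcpt2, Mcpt4, Mcpt8, Ctsg, Gzme, Gzmd, Gzmg, Gzmn, Gzmf, Gzmc and Gzmb. Tpsab1 (chr17:25343245-25345562) and Tpsb2 (chr17:25366305-25369098) lie on chromosome 17. The other 5 genes are apart from these and from one another: Cpa3 (chr3:20215620-20242181), Hdc (chr2:126593667-126619299), Ms4a2 (chr19:11615523-11623719), Fcer1a (chr1:173221284-173227214) and Gata2 (chr6:88193891-88207032). The coordinates are those of GENCODE M21 on GRCm38, whose versioned identifiers match the deposited ones for all 10 genes. Reads of near copies can be miscounted, and over the last 500 bases of the transcripts Mcpt4 shared 12.9% of its 50-base words with Cma2 and 1.55% with Mcpt9. Tpsb2 and Tpsab1 shared none.

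Along that row the classes took turns. In mast cell-like cells Cma1 and Mcpt4 were followed by Mcpt2, a chymase gene usually tied to mucosal mast cells, at 12163 CPM, and by Ctsg, the cathepsin G gene, at 811 CPM. Mcpt2 was uneven, with medians of 15.5 and 5 UMIs a cell in libraries 1 and 2 and highest cells of 1065 and 720. In basophil-like cells the proteases of the row with over 100 CPM were Mcpt8 (1627) and Gzmb (2094), and Mcpt2 had no UMI. In NK cell-like and T cell-like cells as 1 group the level passed to the far end, with Gzmc at 2286 CPM and Gzmb at 2174. Mcpt8 there was at 0.469 CPM.

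Mast cell-like cells held the bulk of the UMIs of 8 of the 10 genes. They gave 92.5% of all Cma1 UMIs in the table, 92.6% of Mcpt4, 91.9% of Tpsb2, 89.9% of Tpsab1, 93.7% of Cpa3, 92.2% of Fcer1a, 87.1% of Ms4a2 and 68.8% of Gata2. Basophil-like cells gave 18.1% of the Gata2 UMIs and 54.5% of the Mcpt8 UMIs, against 14.7% of Mcpt8 from mast cell-like cells. Mixed cells held between 4.37% (Cpa3) and 5.99% (Tpsb2) of the UMIs of the mast cell proteases. Hdc was the exception: neutrophil-like cells held 40.3% of its UMIs, mast cell-like cells 17.0% and basophil-like cells 5.85%.

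Hdc was higher in neutrophil-like than in mast cell-like cells of both libraries. The 230 neutrophil-like cells had 2718 CPM in library 1 (629 UMIs) and 3252 CPM in library 2 (1223 UMIs), that is 1.97 log2 above mast cell-like cells (1.85 to 2.09). A UMI of Hdc was found in 217 of the 230, or 94.3%, at a median depth of 2549.5 UMIs. In NK cell-like cells, not known for histamine synthesis, 1.79% of 2174 cells had one at a median depth of 9763. Thinned to 2000 UMIs a cell, the shares were 92.9% and 0.416%.

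No other gene of the set was high in neutrophil-like cells. Mcpt8, Tpsab1, Ms4a2 and Gata2 had 0 UMIs in all 230, and Cma1 had 12, Mcpt4 5, Cpa3 4, Fcer1a 3 and Tpsb2 2. The neutrophil-like cells held 38853 UMIs of their own markers beside 316 of macrophage markers and 312 of classical monocyte markers. The basophil-like cells, in turn, had no UMI of S100a8, S100a9, Retnlg, Csf3r or Mmp8 and 19 of Cxcr2.

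Hdc was also counted in monocytes and in cDC2-like cells, a dendritic cell class, above the level of lymphocytes. Classical monocyte-like cells had 32.4 CPM in library 1 and 30.8 in library 2, macrophage-like cells 10.2 and 8.56, T cell-like cells 3.76 and 4.57, and NK cell-like cells 2.11 and 1.82. The order of these 4 classes was the same in both libraries. The cDC2-like cells had 16.4 and 21.7 CPM, above the macrophage-like cells, and 19.0% of 189 had a UMI, beside 17.5% of classical monocyte-like cells. In non-classical monocyte-like cells the levels were 16.2 and 71.9 CPM, the second resting on 1 cell of 16 UMIs, without which it was 39.6.

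Neutrophil transcripts moved with part of this. Relative to neutrophil-like cells, Hdc was at 0.134% in T cell-like and 1.04% in classical monocyte-like cells, both libraries together. S100a8 was at 0.0200% and 0.101%, S100a9 at 0.0217% and 0.0579%, and Retnlg at 0.0183% and 0.0213%. Hdc stood above these 3 neutrophil genes in both classes. Cxcr2, at 0.127% and 0.101%, was near Hdc in the T cell-like cells and below it in the monocytes. Csf3r (0.172% and 4.80%) and Mmp8 (0.238% and 24.1%) stood above Hdc in both classes. The part of free RNA in these levels was not tested beyond this.

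Outside the gates the mast cell genes kept to a narrow low band. Over the 12040 other gated cells, levels as a percent of the mast cell-like level were 0.0172% for Cma1, 0.0151% for Mcpt4, 0.0120% for Tpsb2, 0.0115% for Cpa3 and 0.0123% for Fcer1a. Ms4a2, with 10 UMIs, was at 0.0168% and Gata2, with 12, at 0.0211%. Tpsab1 was higher, at 0.0333% (44 UMIs), although it has a lower level in mast cell-like cells than Tpsb2. Hdc, at 3.12%, and Mcpt8, at 1.07%, lay far outside the band.

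The low band was higher in library 1 and, apart from Cma1, differed little between the classes with most UMIs. Outside the gates Cma1 was at 12.4 CPM (library 1) and 8.17 (library 2), Mcpt4 at 7.08 and 3.72, Tpsb2 at 3.36 and 2.11 and Cpa3 at 2.36 and 1.44. In both libraries together Tpsb2 was at 0.0124% of its mast cell-like level in T cell-like cells, 0.0125% in classical monocyte-like, 0.0117% in macrophage-like and 0.00975% in NK cell-like cells, with overlapping intervals. Cpa3 and Tpsb2 kept their ratio, 0.697 Cpa3 UMIs for each Tpsb2 UMI outside the gates and 0.722 inside, and so did Fcer1a, 0.146 outside and 0.142 inside. Other genes did not: there were 3.75 Cma1 UMIs for each Tpsb2 UMI outside and 2.61 inside, 2.00 and 1.59 for Mcpt4, and 0.136 and 0.0489 for Tpsab1. Cells with a Cma1 UMI were 8.92% of the 12040, at a median depth of 7988 UMIs. In droplet assays free RNA of lysed cells can reach every barcode. Whether these shares are free RNA or expression was not tested.

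**Figure D3:**
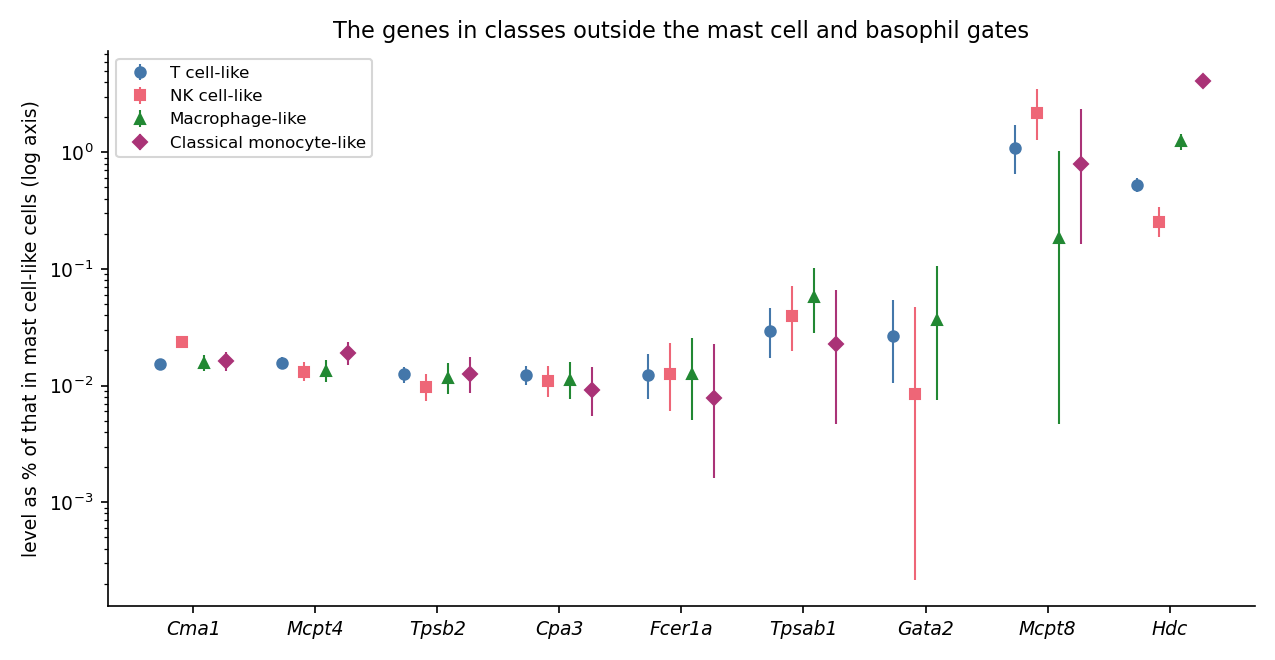
The level of 9 genes in 4 classes outside the gates, both libraries together, is plotted as a percent of the level in mast cell-like cells on a log axis, with bars for exact 95% counting intervals and points left out where no UMI was counted. Cma1, Mcpt4, Tpsb2, Cpa3 and Fcer1a lie near 0.01% to 0.02% in every class, except Cma1 in NK cell-like cells at 0.0237%, while Hdc runs from 0.255% (NK cell-like) to 4.07% (classical monocyte-like).

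Cma1 in NK cell-like cells was above its level in T cell-like cells. There were 2.96 Cma1 UMIs for each Mcpt4 UMI (2.39 to 3.68) in these cells, against 1.64 (1.62 to 1.66) in mast cell-like cells, 1.60 (1.38 to 1.84) in T cell-like and 1.40 (1.05 to 1.89) in classical monocyte-like cells. Macrophage-like cells (1.90, 1.45 to 2.51), cDC2-like cells (2.08, 1.01 to 4.55) and migratory dendritic cell-like cells (2.57, 1.02 to 7.28) had intervals that overlap that of NK cell-like cells. In library 1 the NK value was 2.51 (1.94 to 3.27) and in library 2 it was 4.06 (2.77 to 6.09). Cma1 itself was at 15.9 and 13.2 CPM in NK cell-like cells, against 11.2 and 7.06 in T cell-like cells. In 18 NK cell-like cells there were 3 to 5 Cma1 UMIs, and without cells of 3 or more the ratio was 2.46 (1.98 to 3.07). These groupings were made after the values were seen.

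The higher ratio was that of NK cell-like cells that had no UMI of Gzmd, Gzme, Gzmf or Gzmg, the granzyme genes of strongly activated killer cells. Their ratio of Cma1 to Mcpt4 was 4.29 (3.16 to 5.92), from 223 and 52 UMIs. NK cell-like cells with at least 1 such UMI had 1.91 (1.41 to 2.61), from 126 and 66 UMIs, an interval that takes in the mast cell-like value. In libraries 1 and 2 the first ratio was 3.64 and 5.42 and the second 1.78 and 2.33. Spread among libraries or mice, and so a test, cannot be had with 1 library each.

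Mcpt8 followed the same granzymes in the other direction. Among NK cell-like and T cell-like cells with no UMI of Gzmd to Gzmg, 3 Mcpt8 UMIs were counted in 5542 cells, 0.0669 CPM (0.0138 to 0.196). With 1 to 9 such UMIs there were 2 in 1859 cells (0.0989 CPM), with 10 to 99 there were 7 in 614 cells (0.995 CPM), and with 100 or more there were 24 in 284 cells (5.20 CPM, 3.33 to 7.73). The last group stood 6.09 log2 above the first (4.56 to 8.65), and at 4.25 when Mcpt8 was left out of the basophil gate. The bins were set after the values were seen.

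The top bin was the highest in each library and in each class with the libraries summed. At 100 or more granzyme UMIs the Mcpt8 level was 6.39 CPM for library 1 and 3.96 for library 2, and 4.78 in NK cell-like and 5.78 in T cell-like cells. NK cell-like cells had 6 UMIs (4.29 CPM) in library 1 and 7 (5.31 CPM) in library 2. The T cell-like value rests mostly on library 1, with 9 UMIs (9.49 CPM, 4.34 to 18.0), while library 2 had 2 (2.10 CPM, 0.254 to 7.58). The cells with a Mcpt8 UMI were 19 of 284, or 6.69%, at a median depth of 14635.5 UMIs, against 3 of 5542, or 0.0541%, at 6829. Thinned to 2000 UMIs they were 5 of 284 (1.76%, 0.574 to 4.06) and 0 of 5386, which leaves few UMIs. No cell held more than 3.

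The mast cell genes showed no such rise over the same bins, although a smaller change was not resolved, and Cma1 was lower in NK cell-like cells. From no granzyme UMI to 100 or more, Mcpt4 went from 5.29 CPM (4.64 to 6.01) to 7.58 (5.28 to 10.5). Cma1 went from 11.7 to 9.74, Tpsb2 from 2.83 to 2.17 and Cpa3 from 2.16 to 1.30, all 4 with overlapping intervals. In NK cell-like cells alone Cma1 went from 17.8 CPM (15.5 to 20.3) to 10.7 (7.15 to 15.3), without overlap. Within each library these NK intervals did overlap. Mcpt4 was higher in the last bin than in the first in both libraries, from 6.67 to 9.80 CPM in library 1 and from 3.70 to 5.28 in library 2. Mcpt8 lies beside Ctsg, and Gzme comes next on the same strand. Reads that run on from a neighbour, or that were placed in a near copy, were not tested, and 5.20 CPM is well below the 1627 CPM of basophil-like cells.

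**Figure D4:**
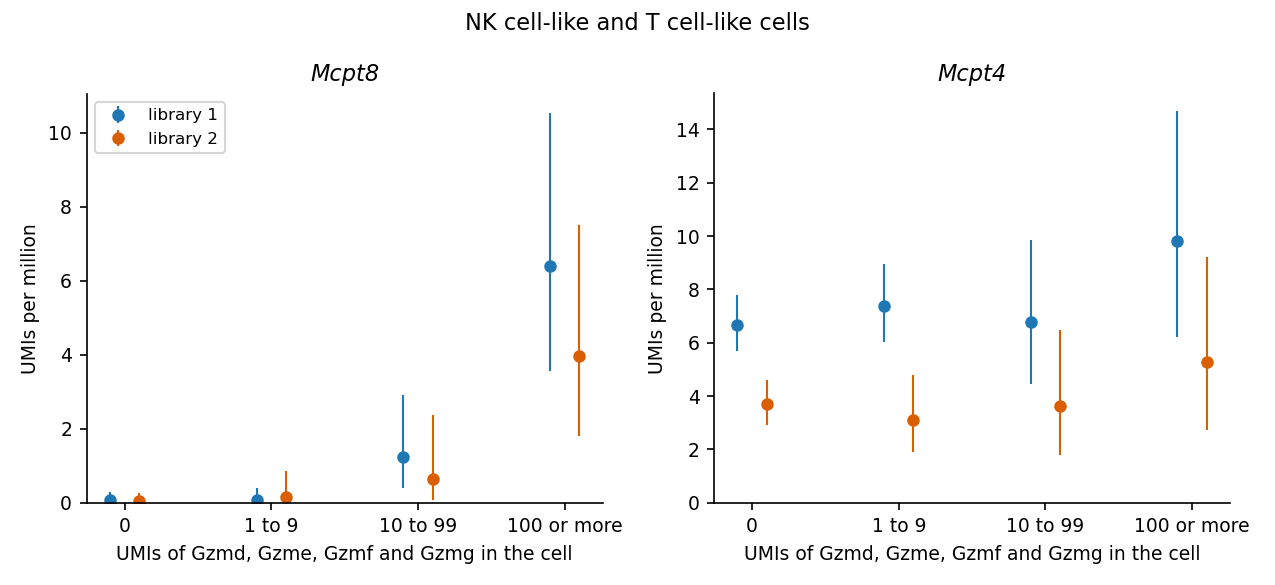
Levels of Mcpt8 (left) and Mcpt4 (right) as CPM in NK cell-like and T cell-like cells are plotted against the number of Gzmd, Gzme, Gzmf and Gzmg UMIs in the cell, for library 1 and library 2, with exact 95% counting intervals. Mcpt8 climbs to 6.39 and 3.96 in the last bin from near 0 in the first, whereas the intervals of Mcpt4 overlap over all bins within a library.

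Between the libraries the mast cell-like cells were close in the set, and Hdc differed most. Library 2 over library 1, Hdc was 0.47 higher on the log2 scale (0.27 to 0.68), from 658 to 915 CPM, and leaving out any 1 cell kept it between 0.41 and 0.52. Cma1 (0.03, 0.01 to 0.06) and Tpsb2 (0.06, 0.03 to 0.10) were higher by small amounts, and Cpa3 (-0.15, -0.19 to -0.10) and Mcpt4 (-0.10, -0.13 to -0.07) lower. The intervals of Tpsab1, Ms4a2, Fcer1a and Gata2 included equality, and Mcpt8 had too few UMIs. So 3 of 9 genes were above and 2 below by counting error, against 9.62% and 5.52% of the 2411 genes compared, but the interval narrows with UMIs and most of these genes are among the highest in the cells.

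Other transcripts in these cells differed between the libraries too, in both directions. Mast cell-like cells of library 1 held 4 UMIs of neutrophil markers and those of library 2 held 64, with Csf3r and Mmp8 at 0 in both. Per 10000 UMIs of a cell, the neutrophil markers had a median of 0 in each library and a highest value of 45.1 in library 2. Classical monocyte markers went from 35 to 69 UMIs, macrophage markers from 126 to 87 and NK cell markers from 26 to 8. T cell markers had 62 and 67 UMIs, with Cd5 at 0 in both, and the median depth was lower in library 2 (5064.5 against 6746). Their part in the Hdc difference was not tested. With mixed cells counted in the mast cell gate, all 9 genes were higher in library 2, Hdc by 0.88, Mcpt4 by 0.33 and Cpa3 by 0.27. In neutrophil-like cells Hdc was higher in library 2 too, by 0.26 (0.12 to 0.40), where 13.5% of 1723 genes were above equality and 11% below.

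Mcpt1, Mcpt2, Ctsg and Gzmb, granule genes outside the set, had larger log2 differences between the libraries than Hdc, Mcpt2 only slightly and Mcpt1 through 1 cell. Of 12 listed protease and packing genes 9 could be compared, with 4 above equality in library 2 and 1 below. Of the 2411 genes compared, 9.62% were above and 5.52% below. The list's median log2 difference was 0.02 against 0.05 for all genes and 0.06 for the set. Mcpt2 fell from 14110 to 9939 CPM (-0.51, -0.56 to -0.45, and between -0.69 and -0.33 without any 1 cell). At -0.33 the difference was smaller than that of Hdc. Ctsg went from 486 to 1182 CPM (log2 1.28, and between 0.86 and 1.56 without any 1 cell) and Gzmb from 236 to 573 CPM (log2 1.28, and between 0.97 and 1.40). Mcpt1 went from 63.6 to 383 CPM, but 157 of its 179 UMIs in library 2 came from 1 cell, and leaving out 1 cell took the log2 value as low as -0.39. Srgn, the serglycin core protein gene, was at 8808 and 9725 CPM (0.14, 0.08 to 0.20).

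Set against basophil-like cells, the pathways around the set split in 2 directions. Granule protease and packing genes were mostly higher in mast cell-like cells (6 above and 2 below of 9 compared, beside 33.4% and 13.8% of all genes), among them Tph1, which makes serotonin's precursor, at 591 CPM against 0 UMIs, and Mcpt2. Srgn was slightly lower, at 9236 against 10855 CPM. IgE receptor signalling genes had 5 above and 0 below of 9, beside 33.4% and 13.8% of all genes, and a median log2 difference of 0.99 beside 0.70. In library 2 alone they had 3 above of 6, near the 44.4% of all genes. Over both libraries Fcer1g, the shared gamma chain, stood at 4915 against 2467 CPM and the adaptor gene Lat at 344 against 93.3. Lat2 stood at 947 and 933 CPM, a small difference for another adaptor gene of this receptor.

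Surface receptor genes fell on both sides. Of 11 compared, 6 were above and 3 below, beside 33.4% and 13.8% of all genes, and in library 2 alone 5 of 10 were above beside 44.4%. These counts hold the gate genes Kit, Mrgprb1, Mrgprb2 and Cd200r3, on which the cells were chosen, so they cannot be set against those shares. In library 2 the only genes above from outside the gates were Il1rl1 and Cd63. Those above were Il1rl1, the IL-33 receptor gene (1217 against 66.7 CPM), Cd63 (3096 against 1387), Adora3 (173 against 66.7), and Kit, Mrgprb1 and Mrgprb2, which are gate genes. The 3 below were Csf2rb (214 against 1133 CPM) and Csf2rb2 (78.8 against 427), the shared beta chains for IL-3, IL-5 and GM-CSF, and Ptger3 (41.9 against 160). Of 4 transcription factor genes compared, Mitf (89.8 CPM against 0 UMIs) was above and Runx1 (133 against 413) below. Of 4 lipid mediator genes Hpgds (208 CPM against 0 UMIs) was above, and Alox5ap (1285 against 1894) and Ptgs2 (6.98 against 1827) were below. For the transcription factor and lipid mediator lists too, the shares of all genes were 33.4% above and 13.8% below.

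Cytokine genes were lower in mast cell-like cells in all 8 compared, beside 13.8% of all genes. Their median log2 difference was -5.54 beside 0.70 for all genes. In library 2 alone 7 of 7 were lower, beside 17.8% of all genes. The basophil-like cells had 34217 CPM of Ccl4 and 18175 CPM of Ccl3, chemokine genes of the CC group, against 170 and 7.98 CPM in mast cell-like cells. Osm was at 5467 against 84.8 CPM, Csf1 at 1760 against 51.9, Il6 at 1227 against 39.9, Cxcl2 at 1067 against 40.9 and Tnf at 493 against 111. Hgf is itself a gate gene. Il4 was at 53.3 CPM in basophil-like cells (4 UMIs, a gate gene) and 42.9 in mast cell-like cells, and Il13 at 240 (18 UMIs) and 12.97.

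Genes with a pattern most like that of each member were sought over 12 classes of at least 20 cells, which left out basophil-like cells. Only genes with at least 50 UMIs in mast cell-like and basophil-like cells together were candidates. Those named were mostly mast cell genes, which this filter favours. By Pearson r of log2(CPM + 1), Cma1 was followed by Cyp11a1 (0.991) and Hs6st2 (0.990), Mcpt4 by Mcpt2 (0.994), Tpsb2 by Adamts5 (0.995), Tpsab1 by C77080 and Mrgprb1 (both 0.997) and Cpa3 by Mrgprb2 (0.991). Fcer1a was followed by Mrgprb2 (0.995), Ms4a2 by Atp8b5 (0.9996), Gata2 by Rgs13 (0.998) and Mcpt8 by Poln (0.996). Of these companions, Cyp11a1 is a basophil gate gene, and Mrgprb1 and Mrgprb2 are mast cell gate genes. Hdc had no such close companion among the candidates, with Srgn (0.903), Rab44 (0.900) and Ago2 (0.897) the nearest. Neutrophil genes with fewer UMIs in mast cell-like and basophil-like cells were not candidates. The 12 points share libraries, and 1 high class sets most of these values.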

How the data were processed

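The deposited table holds whole-number counts of UMIs per gene and barcode from a 10x 3′ library kit, per the labels' protocols, and the submitters' processing notes name Cell Ranger 6.1.2 and build mm10. The gene annotation and any read subsampling are not given in the sources used here. Kept cells needed 500 or more genes and a mitochondrial share of 10% or less. They were gated on 6 markers for each of 15 classes, with at least 3 detected. No doublet caller was run: cells in which another lineage had 3 or more markers at 3 or more UMIs each were put aside as mixed. UMIs were summed by class and library, since cells are not replicates, and divided by the class total (CPM). Intervals are exact Poisson for sums, Clopper-Pearson for shares and conditional binomial for ratios (scipy 1.17.1, Python 3.11.15), and cover counting error only. Ratios across genes used genes with at least 50 UMIs and a pseudocount of 0.5 UMI, and the ratio script was tested on simulated data. The genes and lists, and the rule naming the 5 most similar genes per member (highest Pearson r of log2(CPM + 1) over classes of at least 20 cells), were chosen with earlier results of these data known. Candidates for that rule had at least 50 UMIs in mast cell-like and basophil-like cells together. The split by Gzmd to Gzmg UMIs, the NK cell ratio and 4 of the settings named in the closing section were added after seeing the data: gates without the gene measured, at least 20 UMIs of mast cell markers, 2 of 6 markers, and mixed cells counted.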

Additional observations from a re-analysis of the deposited data

How the results depend on the processing

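The counts of mast cell-like and basophil-like cells stayed within 1.5 times of those given in 36 of 36 repeats, and basophil-like cells of library 2 ranged from 12 to 18 while library 1 had 0 in every one. Hdc in neutrophil-like over mast cell-like cells (log2 1.97) was 1.74 with the 10 genes taken out of the totals and 2.53 with mixed cells counted, and in basophil-like over mast cell-like cells (2.21) it was 1.99 and 2.51. Mcpt8 in NK cell-like and T cell-like cells with 100 or more Gzmd to Gzmg UMIs over those with none (6.09) was 4.25 with gates that hold no gene of the set, and 4.25 with the own gene left out of the gate. The ratio of library 2 to library 1 reversed with mixed cells counted for Mcpt4 (0.33) and Cpa3 (0.27). The cause was not tested. Values that moved beyond their counting interval were 40 of 104 for levels outside the gates, 24 of 94 for percents of UMIs, 13 of 94 for library ratios, 11 of 94 for mast over basophil ratios and 6 of 28 for the Hdc and Mcpt8 ratios above. No mast over basophil ratio reversed. With 15 basophil-like cells and 1 library a group, depth and the number of libraries limit every value here. No paired analysis was possible because each group has 1 sample and the columns carry no sample name.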
